A study of Mus musculus with 123 samples.

Results

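Gene expression was compared in whole lung between the last sampling times of an allergic response, 96 and 168 h, in BALB/c mice sensitized to the egg protein ovalbumin. The labels do not say from which event the hours count. The comparison rests on 16 arrays, 13.01% of the series, with 1 array per mouse of whole lung RNA, chosen by their labels: 8 sensitized mice at 168 h against 8 sensitized mice at 96 h. Beside them stand 8 naive mice at 168 h and 7 naive mice at 96 h, which served as the background for whatever changed with the day or hour of sampling alone. All 4 groups share the BALB/c background and the tissue, and the labels give neither age nor sex. The design text has both arms challenged with ovalbumin, while the titles of naive samples name PBS, so what naive mice received is not settled here; the route and dose of sensitization are not given either. Values are log2 signals of Affymetrix arrays, normalized by RMA, 1 probe set for each of 13053 genes. A difference is the mean log2 signal at 168 h minus that at 96 h, given with its standard error. A gene is said to rise or fall where limma's Benjamini-Hochberg adjusted p was under 0.05. The standard error rests on a spread pooled over all 16 groups of the series, not on the mice compared alone. It can be large, and a gene can miss the threshold, where the signals of those mice do not overlap.

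In this model, type 2 helper T cells and innate lymphoid cells release interleukins 4, 5 and 13 when the antigen returns to the airway. Interleukin 13 turns airway epithelium towards goblet cells that make mucus, interleukin 5 sustains eosinophils, and epithelial and macrophage chemokines draw leukocytes in, while B cells in the lung and its lymphoid follicles mature into plasma cells. When the antigen is gone, resolution involves the end of cell division and recruitment, clearance of dead cells and mucus by phagocytes, and repair of the alveolar and vascular walls, while differentiated plasma cells and remodelled airway epithelium are known to outlast the infiltrate.

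The arrays carried lung RNA in every mouse of the 4 groups. The surfactant gene Sftpc lay between 14.40 and 14.51, the club cell gene Scgb1a1 between 14.54 and 14.67, the type I cell gene Ager between 14.03 and 14.36 and the endothelial gene Cdh5 between 11.45 and 11.94 on the log2 scale over the 31 arrays. Array medians over the whole series lay between 9.32 and 9.44. In 7 arrays of other groups the mean of squamous epithelium genes or that of skeletal muscle genes lay over 2 log2 units above its median over the series. None of the 31 arrays did so. In whole lung RNA, fewer cells of a type and less RNA per cell cannot be told apart.

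Mice stood apart in 2 of the groups. Replicate 6 of the sensitized 168 h group had a mean over goblet cell and mucus genes of 8.88, against 9.36 to 9.87 in the other 7 mice, and of 10.14 over chitinases, against 10.99 to 11.30. Replicate 4 of the naive 168 h group had a mean over cell cycle genes of 9.04, against 7.89 to 8.59 in the other 7 naive mice, and its root mean square distance from its group over all genes was 0.474, against at most 0.221 for the others. Counts that rest on these mice are therefore given with and without both.

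A measure of RNA quality also moved with time in the sensitized arm. The difference between the 3′ and 5′ probe sets of beta-actin, which is larger where amplified RNA covers less of a transcript's 5′ end, was 1.50 ± 0.17 in sensitized mice at 168 h and 1.05 ± 0.16 at 96 h (log2, SD, n = 8 each; exact two-sided permutation p = 0.000466, and 0.00186 after adjustment over 4 such tests). In naive mice it was 1.21 ± 0.23 at 168 h (n = 8) and 1.11 ± 0.08 at 96 h (n = 7; exact permutation p = 0.32, adjusted 0.383). For most gene lists the counts from a fit with this difference as a covariate, called the actin covariate, are given beside the others. Its part in the results was not tested. Only 2 of the 8 arrays at 168 h lay within the range seen at 96 h in the sensitized arm.

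Between 96 and 168 h, 1937 genes fell (14.8% of those tested) and 2443 rose (18.7%) in sensitized lungs. Counts of list members that fell or rose, given below, are to be read against these shares. In naive lungs over the same 72 h, 362 genes fell (2.77%) and 394 rose (3.02%). Most changes in the sensitized arm were small: the median absolute difference over all genes was 0.12 and the median of all differences 0.01 on the log2 scale, and 31 of the genes that fell and 11 of those that rose moved by at least 1 log2 unit. With the actin covariate 2214 fell and 1920 rose, and 2369 of the 4380 calls (54.1%) were kept in the same direction. Without both mice that stood apart 1903 fell and 2316 rose. Of the genes named below, Dnaic2, H2-Ob, Idi1, Ifit1, Mbp, Nppb, Prss16, Ptx3, Slc2a3 and Tnfaip3 did not pass in sensitized lungs without both mice (limma, adjusted p between 0.0559 and 0.161); for the others that did not pass, the value stands beside the gene. The change in sensitized lungs was below that in naive lungs for 424 genes (3.25%) and above it for 468 (3.59%), and without both mice for 213 and 265. Leaving out 1 mouse at a time gave between 321 and 1351 genes that changed in naive lungs, and between 442 and 1400 whose change differed between the arms. Every mouse at 168 h lay below every mouse at 96 h for 295 genes in the sensitized arm (2.26%), and above for 459 (3.52%).

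**Figure D1:**
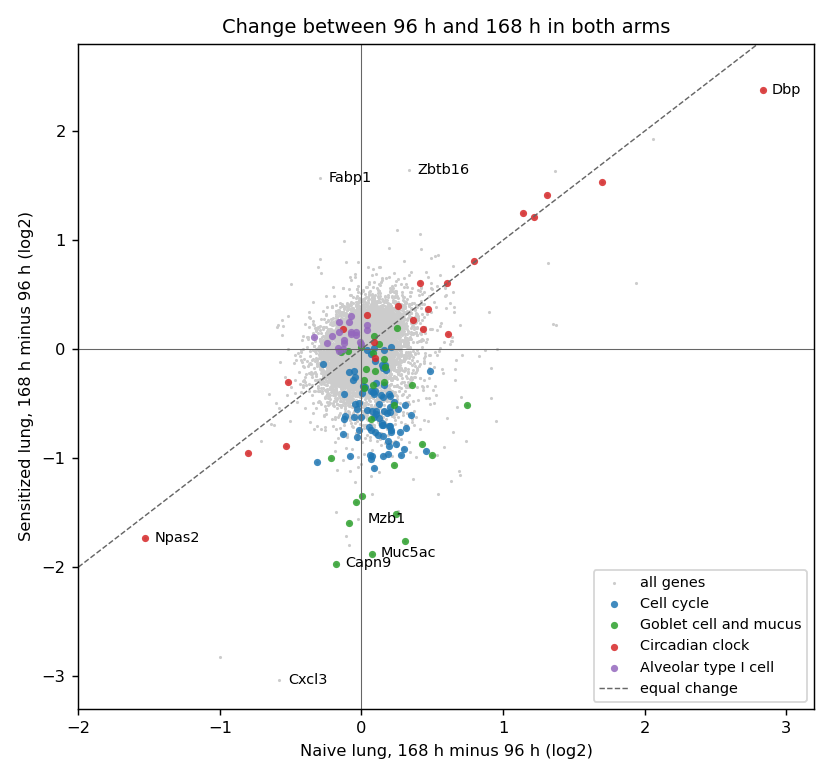
Each point is a gene, with the log2 difference between 168 h and 96 h in sensitized lung on the vertical axis and in naive lung on the horizontal axis. Clock genes such as Dbp and Npas2 lie near the line of equal change, cell cycle and goblet cell genes lie below it with naive differences near 0, and Cxcl3 is the lowest point at -3.04 in sensitized lung.

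Cell division genes fell together. Of 83 cell cycle genes measured, 70 fell and none rose, with a median difference of -0.57 against 0.01 over all genes; 39 fell with the actin covariate and 67 without both mice. Leaving out 1 sensitized mouse at a time left between 61 and 71 that fell. In naive lungs the median of the same genes was 0.11, 1 of them fell and none rose. For 44 genes the sensitized change was below the naive one. This held for 22 without the naive mouse whose cell cycle genes were high, and for 15 without both mice. In all, 21 of the 83 had every mouse at 168 h below every mouse at 96 h. At 168 h none of the 83 stood above naive (3.4% of all genes did), against 77 at 96 h (21.2%). Without naive 168 h replicate 4, in which these genes were high, or without both mice, 2 of the 83 stood above naive at 168 h. Their median distance above naive at 168 h was 0.14 with that mouse, 0.25 without it and 0.27 without both mice.

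The genes at the front of this group act in mitosis. Kif2c, a kinesin that takes microtubules apart at the centromere, had signals between 7.17 and 7.87 (median 7.38) at 168 h, against signals between 8.21 and 8.86 (median 8.53) at 96 h. The groups did not overlap, and the difference was -1.09 ± 0.21 (adjusted p = 2.14e-05). Kif22, a chromosome-binding kinesin, fell by 1.04 ± 0.17 on the log2 scale, Aurkb, the kinase of the chromosomal passenger complex, by 1.01 ± 0.19, and Cep55, which acts in the final cut between daughter cells, by 0.98 ± 0.24. Cdca3, a trigger of mitotic entry, had signals between 8.06 and 8.75 (median 8.31) at 168 h, against signals between 8.78 and 10.13 (median 9.14) at 96 h. Again no mouse at 168 h reached the lowest at 96 h, and naive mice lay between 7.71 and 8.87 (median 8.04) at 168 h and between 7.51 and 8.37 (median 8.08) at 96 h, a span that takes in most sensitized mice at 168 h. Cdc20, the activator of the anaphase-promoting complex, differed by -0.98 ± 0.18, and Ccnb2, a mitotic cyclin, by -0.70 ± 0.18 (adjusted p = 0.00179). The cyclin Ccna2 fell by 0.76 ± 0.18, the mitotic kinase Cdk1 by 0.75 ± 0.21 and the spindle checkpoint kinase Bub1b by 0.81 ± 0.16.

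Genes of DNA synthesis fell too. The helicase subunits Mcm6, Mcm5, Mcm3 and Mcm2 differed by -0.62, -0.62, -0.55 and -0.38 on the log2 scale, the thymidine kinase Tk1 by -0.74, the ribonucleotide reductase subunit Rrm1 by -0.41 and the thymidylate synthase Tyms by -0.26, all past the threshold. The activators E2f1, which drives entry into S phase, and Foxm1, which drives mitotic genes, fell by 0.38 ± 0.08 and 0.28 ± 0.07. In the comparison with naive lungs at 168 h Kif2c stood 0.26 and Cdca3 0.18 log2 units higher, and without naive 168 h replicate 4 by 0.38 and 0.28, none of them past the threshold.

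Promoters of cell cycle genes are known for a CCAAT box, bound by NF-Y, and for the cell cycle genes homology region TTTGAA, through which the DREAM complex silences them in resting cells. Windows from 250 bases before to 50 after the start of 3 of these genes are shown because they carry both motifs, from the RefSeq table of GRCm38.p6: Cdca3 at chr6:124829926-124830225 on the plus strand, Cdc20 at chr4:118437294-118437593 and Ccnb2 at chr9:70421505-70421804 on the minus strand. Capitals mark CCAAT and TTTGAA on either strand (ATTGG and TTCAAA when read from the opposite one).
Cdca3: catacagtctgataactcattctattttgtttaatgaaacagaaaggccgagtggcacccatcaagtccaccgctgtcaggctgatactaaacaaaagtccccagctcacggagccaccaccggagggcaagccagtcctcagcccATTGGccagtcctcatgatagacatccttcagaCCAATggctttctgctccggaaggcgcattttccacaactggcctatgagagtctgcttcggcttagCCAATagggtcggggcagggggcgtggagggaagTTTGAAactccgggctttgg
Cdc20: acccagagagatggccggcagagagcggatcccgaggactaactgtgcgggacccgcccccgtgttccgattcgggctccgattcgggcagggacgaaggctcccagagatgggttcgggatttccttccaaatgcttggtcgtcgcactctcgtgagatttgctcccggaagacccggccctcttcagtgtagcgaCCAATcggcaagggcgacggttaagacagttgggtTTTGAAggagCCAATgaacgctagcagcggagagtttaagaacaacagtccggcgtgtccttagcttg
Ccnb2: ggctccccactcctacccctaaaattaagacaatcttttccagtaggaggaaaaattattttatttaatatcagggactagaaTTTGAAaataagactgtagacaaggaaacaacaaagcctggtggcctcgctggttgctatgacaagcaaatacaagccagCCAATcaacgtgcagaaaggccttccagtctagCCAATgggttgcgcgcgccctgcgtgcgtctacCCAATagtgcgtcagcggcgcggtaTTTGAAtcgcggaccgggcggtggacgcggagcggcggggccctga
Of the 70 cell cycle genes that fell, 54 had a window in the table. TTTGAA stood in 32 of these windows (59.3%), against 11.7% of 10459 tested genes with a window and 17.9% of all 32851 windows. CCAAT stood in 38 (70.4%), against 37.5% of tested genes. Among all measured cell cycle genes, 66 of which had a window, the shares were 48.5% for TTTGAA and 65.2% for CCAAT. In the windows of clock genes CCAAT stood in 11 of 17 (64.7%) and TTTGAA in 0, so the CCAAT share was not particular to cell cycle genes. The variant TTTAAA stood in 16.7%, against 9.26% of tested genes. Both strands were searched, and TTTGAA and TTTAAA, which differ in 1 letter, were counted apart. The shares describe these windows and no binding was measured.

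Genes of goblet cells and mucus fell in part, and many stayed above naive levels. Of 30 measured, 14 fell and 1 rose, with a median of -0.35, and 9 fell with the actin covariate. Without both mice 12 fell, and without any 1 of the sensitized mice in turn between 10 and 16. At 168 h 16 of the 30 stood above naive, against 24 at 96 h. The change was below the naive one for 8, and for 2 without both mice.

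Muc5ac, the gel-forming mucin that metaplastic goblet cells secrete, had signals between 7.54 and 9.19 (median 8.71) in sensitized mice at 168 h, against signals between 9.39 and 11.48 (median 10.63) at 96 h. All 8 mice at 168 h lay below all 8 at 96 h, and all but the lowest, replicate 6, lay above every naive mouse at 168 h. The difference was -1.88 ± 0.31 (3.67-fold lower, adjusted p = 1.84e-06), and the change differed from that in naive lungs by -1.95 ± 0.45 (adjusted p = 0.00724, and 0.0234 without both mice). Muc5b, the mucin of healthy airways, had signals between 11.37 and 12.25 (median 11.96) at 168 h, against signals between 11.43 and 13.03 (median 12.46) at 96 h. These ranges overlapped, and its difference of -0.51 ± 0.32 did not pass (adjusted p = 0.212).

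Clca1, a secreted protease that goblet cells make under interleukin 13, stayed far above naive. Its signals lay between 10.66 and 13.79 (median 13.50) at 168 h, against signals between 13.96 and 14.31 (median 14.15) at 96 h and between 4.99 and 5.82 (median 5.37) in naive mice at 168 h. Every mouse at 168 h was below every mouse at 96 h, yet the difference of -0.99 ± 0.58 did not pass (adjusted p = 0.175). Replicate 6 had the lowest value and the other mice at 168 h lay at 12.92 or above. Its mean signal at 168 h was 7.77 log2 units above that of naive mice. Naive signals lay far under the array medians. Whether the probes were above background in naive lung or near saturation in sensitized lung was not tested, so the difference is one between signals and no measure of the fold in RNA.

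Capn9, a calpain known from the digestive tract, fell by 1.97 ± 0.33 and Fxyd4, a regulator of the sodium pump, by 1.76 ± 0.46, both without overlap between the groups. The anion exchanger Slc26a4 fell by 1.60 ± 0.47, Scin, an actin-severing protein, by 1.51 ± 0.36, Gcnt3, which branches mucin glycans, by 1.40 ± 0.29, Fcgbp, a mucus protein, by 1.35 ± 0.25, and Retnlb, a resistin-like protein of goblet cells, by 1.80 ± 0.37 (adjusted p = 8.69e-05). Tff2, a trefoil peptide of mucus, fell by 0.87 ± 0.34. Upstream of them, Spdef, the transcription factor of goblet cell differentiation, fell by 0.51 ± 0.17 and Foxa3, another factor of this cell type, by 0.64 ± 0.18. Agr2, a disulfide isomerase needed to fold mucins, and Bpifb1, an airway surface protein, differed by -0.97 ± 0.41 and -1.06 ± 0.44 with adjusted p of 0.0564 and 0.0532. For Capn9, Fxyd4, Scin, Gcnt3 and Retnlb the change differed from the naive one at adjusted p of 0.0174, 0.0421, 0.03, 0.0319 and 0.0367, and at 0.0575, 0.143, 0.0964, 0.116 and 0.101 without both mice.

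Of 7 chitinases and chitinase-like proteins, 4 fell, 0 with the actin covariate and 3 without both mice, and 4 remained above naive at 168 h. Chil4, also called Ym2, a product of epithelium and macrophages under interleukins 4 and 13, had signals between 7.07 and 12.87 (median 12.28) at 168 h, against signals between 12.34 and 14.01 (median 13.50) at 96 h. The lowest value at 168 h is that of replicate 6, the mouse nearest to naive, and the ranges overlapped. The difference was -1.71 ± 0.66 (adjusted p = 0.0346), and without replicate 6 it was -1.06 (adjusted p = 0.198). Chia1, the acidic chitinase that degrades chitin in the airway, fell by 0.73 ± 0.16, and Chil1, a chitinase-like lectin, by 0.26 ± 0.06. Chil3, or Ym1, differed by -0.38 ± 0.16 and did not pass (adjusted p = 0.0605).

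**Figure D2:**
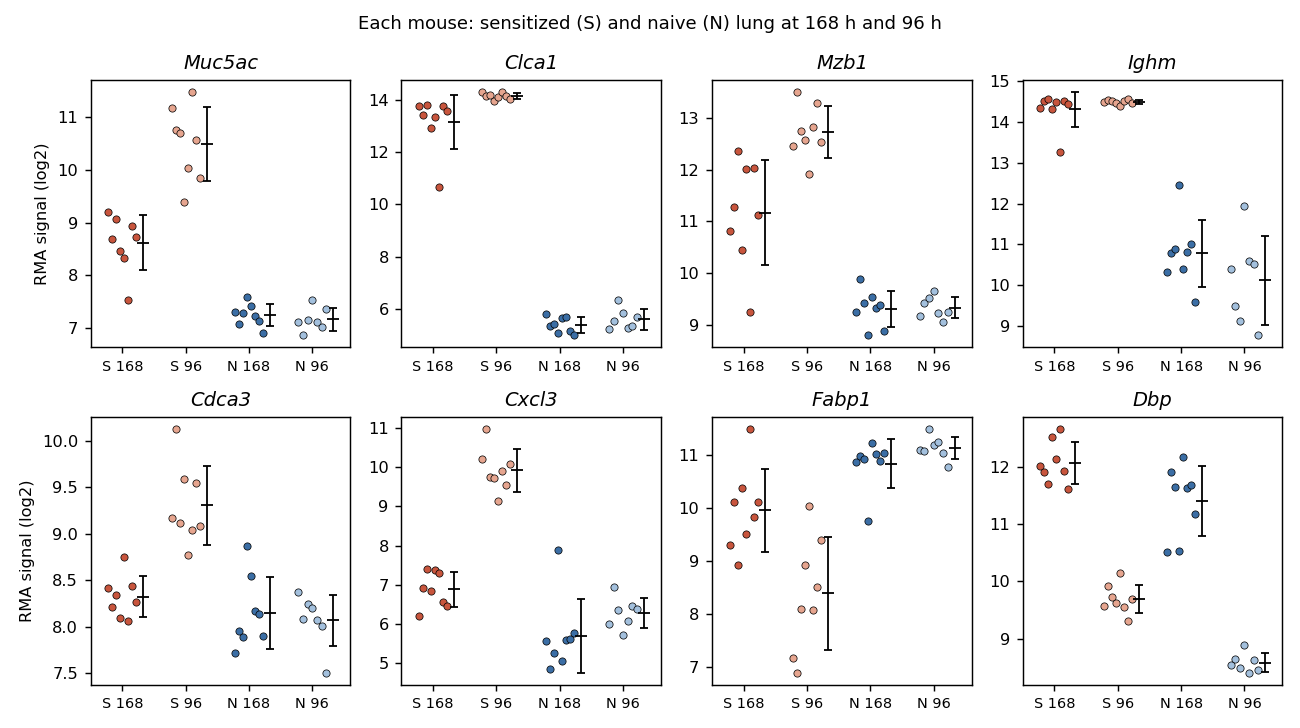
Log2 signals of 8 genes in each mouse of sensitized (S) and naive (N) lung at 168 h and 96 h, with group means and SD beside the points. Muc5ac, Clca1, Cdca3 and Cxcl3 are lower in every sensitized mouse at 168 h than at 96 h. The ranges of Ighm overlap between the times, with replicate 6 far below the rest at 168 h. Fabp1 is closer to naive at 168 h, and Dbp is higher at 168 h in both arms.

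Chemokines of neutrophils had the lowest differences among all genes that fell. Cxcl3, a ligand of Cxcr2, had signals between 6.20 and 7.40 (median 6.88) in sensitized mice at 168 h, against signals between 9.15 and 10.97 (median 9.83) at 96 h. The groups lay well apart. The difference was -3.04 ± 0.54, 8.2-fold lower (adjusted p = 5.55e-06), and its naive mice lay between 4.84 and 7.89 (median 5.57) at 168 h with replicate 4 highest. Cxcl5, another ligand of Cxcr2, made by epithelium, had signals between 6.00 and 8.39 (median 7.24) at 168 h, against signals between 9.39 and 10.72 (median 10.03) at 96 h. It fell by 2.83 ± 0.56 (adjusted p = 4.49e-05) without overlap, and neither gene was above naive at 168 h past the threshold. Cxcl1 differed by -0.66 ± 0.35 and did not pass (adjusted p = 0.138), although its groups did not overlap. Of 16 genes in the list of CXC and other chemokines 4 fell and none rose (2 with the actin covariate), the others being Cxcl13, which draws B cells into follicles (-0.74 ± 0.29), and Pf4 of platelets (-0.26 ± 0.09). The 14 neutrophil markers themselves showed no gene past the threshold, with a median of 0.16, and the extremes were Ltf at -0.45 ± 0.53 and Clec4e at 0.35 ± 0.29.

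Of 14 CC chemokines, which act on eosinophils, monocytes and lymphocytes, 2 fell, a share near that of all genes (14.8%), and none rose. Ccl8, a ligand of Ccr8 in mice, had signals between 9.35 and 12.18 (median 11.92) at 168 h, against signals between 12.22 and 13.26 (median 12.74) at 96 h. All mice at 168 h lay below all at 96 h and the difference was -1.33 ± 0.37 (adjusted p = 0.00305), with a remaining distance of 2.44 log2 units above naive lung. Ccl11, or eotaxin, had signals between 8.61 and 11.28 (median 10.37) at 168 h, against signals between 10.55 and 11.84 (median 11.32) at 96 h. Its groups overlapped, it fell by 1.11 ± 0.36 (adjusted p = 0.0116), and it was no longer past the threshold against naive (0.67, adjusted p = 0.3). The changes of Ccl8 and Ccl11 differed from those in naive lungs by -1.87 ± 0.53 and -1.80 ± 0.52, and without both mice by -1.37 and -1.48 with adjusted p of 0.0984 and 0.0787. With the actin covariate neither fell past the threshold (-0.73 and -0.22). Ccl17, the ligand of Ccr4 on type 2 helper cells, differed by 0.039 ± 0.32 and stood 1.35 above naive at 168 h. Ccl22, the other ligand of Ccr4, differed by -0.42 ± 0.31, Ccl24 by -0.47 ± 0.34 and Ccl20, the ligand of Ccr6, by -0.54 ± 0.25, none past the threshold.

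Among 17 chemokine receptors 3 fell and 1 rose, and 1 and 3 with the actin covariate. Without the covariate the share that fell lay near that of all genes (14.8%), and the share that rose lay below it (18.7%). Ccr6, found on B cells and helper T cells, fell by 0.74 ± 0.12 (adjusted p = 5.73e-07) and Ccr10, found on antibody-secreting cells, by 0.33 ± 0.09. Cxcr3 fell by 0.32 ± 0.11. Ackr2, a decoy receptor that scavenges CC chemokines, rose by 0.52 ± 0.12, with every mouse at 168 h above every mouse at 96 h. Cxcr6 and Ccr3, the eosinophil receptor for Ccl11, differed by -0.40 ± 0.18 and 0.12 ± 0.39 and stood 0.88 and 1.44 above naive at 168 h.

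Of 13 type 2 cytokines and receptors none fell and 2 rose, a share below that of all genes (18.7%). Il13 had signals between 6.33 and 7.64 (median 7.11) at 168 h, against signals between 7.14 and 8.31 (median 7.70) at 96 h. The ranges overlapped and the difference of -0.54 ± 0.32 did not pass (adjusted p = 0.186). Il4, Il5 and the alarmin Il33 differed by -0.14 ± 0.37, -0.24 ± 0.29 and 0.11 ± 0.15, none past the threshold. Tslp, an epithelial alarmin, was the one that rose most. It had signals between 10.58 and 10.81 (median 10.63) at 168 h, against signals between 9.85 and 10.30 (median 10.12) at 96 h, with no overlap. Its difference was 0.55 ± 0.10 (adjusted p = 6.26e-06), and it stood at -0.0091 relative to naive at 168 h and at -0.59 at 96 h. The change in Tslp exceeded that in naive lungs by 0.59 ± 0.14 (adjusted p = 0.00969, and 0.0286 without both mice). Stat6, which carries the interleukin 4 and 13 signal, rose by 0.18 ± 0.05 but was -0.028 with the actin covariate, and the decoy receptor Il13ra2 and Il10 differed by -0.43 ± 0.25 and -0.41 ± 0.29, neither past the threshold.

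Of 13 mast cell and basophil markers 4 fell and none rose (2 with the actin covariate, 4 without both mice). Mcpt1, a chymase of mast cells in the epithelium, had signals between 4.09 and 5.42 (median 4.62) at 168 h, against signals between 4.82 and 7.42 (median 6.30) at 96 h. The ranges overlapped, and it fell by 1.50 ± 0.32 (adjusted p = 0.000171). Mcpt2, another mucosal protease, fell by 1.22 ± 0.37 and stood 2.16 above naive at 168 h. The tryptases Tpsab1 and Tpsb2 fell by 0.56 ± 0.13 and 0.53 ± 0.16. The other 9 markers, 3 of them proteases, did not pass, and the median of the 13 was 0.00074.

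None of 7 eosinophil markers passed the threshold. Epx, the eosinophil peroxidase, had signals between 5.71 and 6.33 (median 5.98) at 168 h, against signals between 5.68 and 7.14 (median 6.14) at 96 h. These ranges overlapped widely and the difference was -0.24 ± 0.19 (adjusted p = 0.322). Prg2, the granule major basic protein, differed by -0.12 ± 0.28, Siglecf by 0.22 ± 0.14 and Alox15 by -0.35 ± 0.56, and Prg2 stood 0.99 above naive at 168 h.

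Phagocyte genes of lysosomes and lipid handling fell. Of 24, 10 fell and none rose, with a median of -0.11; with the actin covariate 4 fell and 2 rose, and without both mice 10 fell. Acp5, the tartrate-resistant phosphatase of activated macrophages, had signals between 9.54 and 10.43 (median 10.04) at 168 h, against signals between 10.28 and 11.34 (median 10.83) at 96 h. The ranges overlapped, the difference was -0.81 ± 0.17 (adjusted p = 0.00013), and it was -0.39 with the actin covariate. Apoc2, an apolipoprotein, fell by 0.77 ± 0.17, Trem2, a lipid receptor of macrophages, by 0.69 ± 0.20, the cathepsins Ctsk and Ctsz by 0.59 ± 0.23 and 0.40 ± 0.08, and Psap, the precursor of the saposins, by 0.44 ± 0.08. Mmp12, the macrophage elastase, differed by -0.94 ± 0.40, just short of the threshold (adjusted p = 0.0562), and stood 2.13 above naive at 168 h.

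Of 25 monocyte and interstitial macrophage markers 4 fell and 3 rose, and 0 and 5 with the actin covariate. Without the covariate these shares lay near or below those of all genes (14.8% fell and 18.7% rose). The complement genes C1qa and C1qc, made by macrophages, fell by 0.77 ± 0.16 and 0.56 ± 0.17, and C1qb, another chain of the same protein, differed by -0.080 ± 0.11 without passing. The folate receptor Folr2 fell by 0.49 ± 0.16 and turned to 0.13 with the actin covariate. Lyz1 and Lyve1 rose by 0.32 ± 0.09 and 0.34 ± 0.13, and Lyve1, a marker of perivascular macrophages and lymphatic vessels, did not pass without both mice (adjusted p = 0.0727). Of 14 complement genes 4 fell (1 with the actin covariate), among them the regulator Cfi (-0.61 ± 0.20).

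Among 19 alveolar macrophage markers 1 fell and 2 rose (0 and 3 with the actin covariate). Without the covariate both shares lay below those of all genes (14.8% fell and 18.7% rose). Itgax, the integrin CD11c shared with dendritic cells, fell by 0.60 ± 0.17. Fabp1, a fatty acid binding protein, had signals between 8.93 and 11.49 (median 9.98) in sensitized mice at 168 h, against signals between 6.90 and 10.04 (median 8.30) at 96 h. The ranges overlapped, and naive mice lay between 9.76 and 11.24 (median 10.96) at 168 h and between 10.79 and 11.49 (median 11.11) at 96 h, above most sensitized mice. Fabp1 rose by 1.57 ± 0.34 (adjusted p = 0.000147), and the change exceeded the naive one by 1.86 ± 0.48 (adjusted p = 0.0142), against 1.49 without both mice (adjusted p = 0.057). Il18 rose by 0.75 ± 0.17, and Fabp4 differed by -0.57 ± 0.38 and did not pass. Of 15 genes that interleukins 4 and 13 raise in macrophages, 4 fell and 1 rose, and 0 and 5 with the actin covariate. Pdcd1lg2, the ligand PD-L2, fell by 0.86 ± 0.31, the signal inhibitor Cish by 0.53 ± 0.18 and Socs1 by 0.40 ± 0.09. The lectins Cd209e and Mgl2 differed by -0.77 ± 0.44 and -0.46 ± 0.20, neither past the threshold, and Cd209e stood 3.01 above naive.

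Enzymes and receptors of the eicosanoids fell in 8 of 23 cases and rose in 2 (2 and 1 with the actin covariate). Pla2g5, which frees arachidonic acid, fell by 0.65 ± 0.18, Ptgs2, the inducible cyclooxygenase, by 0.45 ± 0.17, Ptges, the prostaglandin E synthase, by 0.45 ± 0.14, and Tbxas1, the thromboxane synthase, by 0.45 ± 0.14. The prostacyclin receptor Ptgir fell by 0.46 ± 0.15, and the thromboxane receptor Tbxa2r rose by 0.37 ± 0.12. Without both mice Ptgs2 did not pass (adjusted p = 0.0617).

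Of 16 B cell markers 10 fell and none rose, with a median of -0.44, 3 with the actin covariate, 7 without both mice, and between 4 and 11 when 1 mouse was left out. The count was 4 without sensitized 168 h replicate 1 and 6 without sensitized 96 h replicate 2. Spib, a transcription factor of B cells, had signals between 9.97 and 11.04 (median 10.57) at 168 h, against signals between 10.64 and 11.84 (median 11.11) at 96 h. The ranges overlapped, and Spib fell by 0.71 ± 0.19 (adjusted p = 0.00195). The adaptor Blnk fell by 0.62 ± 0.15, the receptor chain Cd79b by 0.50 ± 0.16, and the surface protein Ms4a1, or CD20, by 0.53 ± 0.19, which did not pass without both mice (adjusted p = 0.066). At 168 h 0 of the 16 B cell markers stood above naive, which is near the share of all genes that did (3.4%).

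Of 16 genes of germinal centers and lymphoid follicles 5 fell and 2 rose, and 2 and 3 with the actin covariate. The lymphotoxins Ltb and Lta, which organize follicles, fell by 0.70 ± 0.14 and 0.57 ± 0.19, and Tnfrsf13b, the receptor TACI, by 0.51 ± 0.15. Of 11 MHC class II presentation genes 5 fell (1 with the actin covariate), and 2 or 3 without sensitized 168 h replicate 1 or 6 or without 96 h replicate 2, 4 or 7, led by H2-Oa (-0.50 ± 0.17), H2-DMb2 (-0.42 ± 0.11) and H2-Ob (-0.42 ± 0.17), chains that act in peptide loading. H2-Aa, a chain of the presenting molecule itself, fell by 0.22 ± 0.06, H2-Ab1 differed by -0.085 ± 0.06, and both stood above naive at 168 h, by 0.21 and 0.26. Of 22 dendritic cell markers 7 fell and 2 rose, and 0 and 4 with the actin covariate; 4 fell without sensitized 168 h replicate 6 and 3 without 96 h replicate 2. The growth factor receptor Flt3 fell by 0.39 ± 0.08, the factor Irf8 by 0.38 ± 0.09 and Zbtb46, a factor of conventional dendritic cells, rose by 0.36 ± 0.08. Irf4 fell by 0.64 ± 0.23, did not pass without both mice (adjusted p = 0.0984) and was 0.030 with the actin covariate.

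Of 19 T cell markers 5 fell and none rose, 0 with the actin covariate, and between 2 and 8 when 1 mouse was left out. The count was 3 without sensitized 168 h replicate 1 or 4 or without 96 h replicate 1, 2 without 96 h replicate 2 and 8 without 96 h replicate 5. Cd3g, a chain of the T cell receptor complex, fell by 0.44 ± 0.14, the coreceptor Cd4 by 0.39 ± 0.10 and the kinase Zap70 by 0.35 ± 0.09. Among 28 genes of T cell activation and of helper and regulatory cells 3 fell and none rose, and 0 and 2 with the actin covariate. Pdcd1, the receptor PD-1, had signals between 6.47 and 7.33 (median 7.04) at 168 h, against signals between 7.29 and 8.45 (median 7.79) at 96 h. With overlapping ranges it fell by 0.78 ± 0.21 (adjusted p = 0.00237) and stood 0.83 above naive at 168 h. The costimulator Icos fell by 0.54 ± 0.19, which did not pass without both mice (adjusted p = 0.0646), and Ikzf2, a factor of regulatory T cells, by 0.34 ± 0.10. Tnfrsf9 and Ctla4 differed by -0.91 ± 0.38 and -0.47 ± 0.22, neither past the threshold. Of 18 natural killer and cytotoxic lymphocyte genes 1 fell, Ctsw at -0.35 ± 0.14. For T cell activation and for natural killer genes these counts are below the share of all genes that fell (14.8%).

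Plasma cell genes fell in part, and antibody genes stayed above naive. Of 19 plasma cell differentiation genes 10 fell and 2 rose, with a median of -0.35, 3 and 4 with the actin covariate, and 6 and 2 without both mice or without sensitized 168 h replicate 6 alone. At 168 h 9 stood above naive, and 13 at 96 h. Mzb1, a chaperone of immunoglobulin assembly, had signals between 9.26 and 12.36 (median 11.21) in sensitized mice at 168 h, against signals between 11.91 and 13.50 (median 12.66) at 96 h and between 8.80 and 9.88 (median 9.35) in naive mice at 168 h. The sensitized ranges overlapped, with replicate 6 among the naive values. Mzb1 fell by 1.56 ± 0.26 (2.95-fold lower, adjusted p = 2.35e-06), the change differed from the naive one by -1.54 ± 0.38 (adjusted p = 0.0108), and without both mice by -1.34 (adjusted p = 0.0286). Eaf2, a factor of transcription elongation, fell by 1.33 ± 0.27, Edem1, which sorts misfolded glycoproteins for disposal, by 0.86 ± 0.17, and Tnfrsf17, the survival receptor BCMA, by 0.81 ± 0.18. Derl3 and Slamf7 fell by 0.69 ± 0.21 and 0.41 ± 0.15, and neither passed without both mice (adjusted p = 0.0527 and 0.124); Slamf7 was 0.026 with the actin covariate. Xbp1, which drives the secretory program, differed by -0.13 ± 0.07 and did not pass.

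Among 6 genes of immunoglobulin chains and transport 2 fell and 5 stood above naive at 168 h. Ighm, the mu heavy chain, had signals between 13.27 and 14.57 (median 14.46) at 168 h, against signals between 14.38 and 14.55 (median 14.50) at 96 h. The ranges overlapped, but replicates 1 (14.35), 4 (14.32) and 6 at 168 h lay below every mouse at 96 h, replicate 6 by far the most. The difference was -0.18 ± 0.50 (adjusted p = 0.816), and Ighm stood 3.53 above naive. Naive mice at 96 and 168 h ranged between 8.77 and 12.47, and their spread enters this standard error. Whether the probes of Ighm were near saturation was not tested. Igha and Jchain, which joins IgA and IgM into polymers, differed by -0.36 ± 0.17 and -0.35 ± 0.26, neither past the threshold. Iglv1, a lambda variable segment, fell by 0.93 ± 0.22, and Pigr, the epithelial receptor that carries IgA into the airway, by 0.75 ± 0.20 (adjusted p = 0.00221).

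Of 28 chaperones and secretory genes of the endoplasmic reticulum 6 fell and 2 rose, and 4 and 4 with the actin covariate. The disulfide isomerase Pdia4 fell by 0.63 ± 0.12 without overlap of the groups, and the signal peptidase subunits Sec11c and Spcs3 by 0.32 ± 0.06 and 0.29 ± 0.07. Sdf2l1 fell by 0.44 ± 0.17 and turned to 0.15 with the actin covariate. Herpud1, of protein degradation, rose by 0.39 ± 0.09, and rose in naive lungs too, by 0.53 ± 0.10.

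Some genes of the alveolar wall, which stood below naive at 96 h, rose. Of 20 alveolar type I cell markers 8 rose and none fell, with a median of 0.12, and 8 rose without both mice. With the actin covariate 5 rose and 1 fell, with a median of 0.03, and 6 fell in naive lungs. At 168 h none of the 20 stood below naive (1.41% of all genes did), against 18 at 96 h (20.8%). Without naive 168 h replicate 4, 2 stood below naive at 168 h, and 4 without both mice. For 10 genes the change exceeded the naive one, and for 2 without the naive mouse that stood apart. In naive lungs 5 of the markers fell with that mouse and 0 without it. Pdpn, or podoplanin, a surface glycoprotein of type I cells, had signals between 13.26 and 13.37 (median 13.35) at 168 h, against signals between 13.07 and 13.26 (median 13.16) at 96 h. The groups met without overlapping, and Pdpn rose by 0.18 ± 0.03 (adjusted p = 6.57e-08). Sema3a and Sema3e, guidance cues that type I cells express, rose by 0.30 ± 0.08 and 0.25 ± 0.09, Col4a3, of the alveolar basement membrane, by 0.25 ± 0.08, and the chloride channel protein Clic5 by 0.15 ± 0.04. Ager did not pass, with 0.048 ± 0.03.

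Of 23 surfactant and alveolar type II cell markers 6 rose and 1 fell, and 4 and 0 with the actin covariate. Sftpb, a surfactant protein that spreads the lipid film, had signals between 13.66 and 13.84 (median 13.75) at 168 h, against signals between 13.23 and 13.58 (median 13.36) at 96 h. The groups did not overlap, the difference was 0.39 ± 0.06 (adjusted p = 4.38e-08), and it was 0.14 with the actin covariate. Napsa, which processes the Sftpb protein, rose by 0.21 ± 0.05 and Abca3, the lipid pump of lamellar bodies, by 0.12 ± 0.05, which was -0.057 with the actin covariate. The marker that fell, Chil1, belongs to the chitinases as well. Lcn2, induced in inflamed epithelium, differed by -0.27 ± 0.13.

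Blood vessel markers rose in 10 of 31 cases and none fell, with a median of 0.13; with the actin covariate 5 rose and 2 fell, without both mice 10 rose and 3 fell, and leaving out 1 mouse gave between 5, without 96 h replicate 2, and 11 that rose. At 168 h 1 of the 31 stood below naive (1.41% of all genes did), against 19 at 96 h (20.8%). Robo4, a receptor that stabilizes the vessel wall, had signals between 11.74 and 12.05 (median 11.88) at 168 h, against signals between 11.36 and 11.59 (median 11.49) at 96 h. Without overlap, Robo4 rose by 0.39 ± 0.06 (adjusted p = 9.45e-07). The vascular endothelial growth factor receptors Flt1 and Kdr rose by 0.44 ± 0.08 and 0.21 ± 0.08, and the lymphatic Flt4 by 0.32 ± 0.08. Esm1, of endothelial tip cells, and Apold1 differed by 0.70 ± 0.31 and 0.41 ± 0.19, neither past the threshold, and Apold1 stood at -1.16 relative to naive at 168 h. Of 16 lymphatic and activated vessel genes 4 rose and 1 fell, and 2 and 0 without both mice. The one that fell was Tnfaip3, which restrains NF-kappaB (-0.37 ± 0.15).

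Of 20 club cell and secretory markers 3 rose and 1 fell, and 0 and 2 with the actin covariate, smaller shares than among all genes (18.7% rose and 14.8% fell). Pon1, an esterase of club cells, had signals between 10.07 and 11.88 (median 10.72) at 168 h, against signals between 8.66 and 10.45 (median 10.02) at 96 h. With overlapping ranges Pon1 rose by 0.996 ± 0.27 (adjusted p = 0.00214), yet it stood at -0.95 relative to naive at 168 h. Reg3g and Bpifa1, secreted antimicrobial proteins, differed by -0.84 ± 0.87 and -0.25 ± 0.88, with wide spread among mice, and the glutathione transferase Gsta3 by 0.28 ± 0.15. Of 43 ciliated cell and axoneme genes 8 fell, a share near that of all genes, 35 fell with the actin covariate, and none rose. The count was 4 without sensitized 168 h replicate 5, 13 without 96 h replicate 4, 5 without 96 h replicate 5 and 3 without 96 h replicate 6. Foxj1, the master factor of ciliated cells, fell by 0.43 ± 0.16, Ccno, which drives the building of many centrioles, by 0.44 ± 0.12, and the axoneme genes Rsph1 and Dnaic2 by 0.63 ± 0.13 and 0.47 ± 0.19. At 168 h 8 of the 43 stood above naive (4 without both mice and 0 with the actin covariate), against 30 at 96 h. Of 21 basal cell and repair genes 5 fell and 2 rose. Alox12e, a lipoxygenase of epithelium, fell by 0.63 ± 0.16, and the basal markers Trp63 and Krt14 differed by -0.59 ± 0.33 and -0.57 ± 0.40, neither past the threshold. The protease Ctse fell by 0.56 ± 0.18, and was 0.010 with the actin covariate.

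Smooth muscle genes fell in 6 of 21 cases and rose in 2, and in 1 and 2 with the actin covariate. Myh11, the smooth muscle myosin, fell by 0.44 ± 0.12, Des, or desmin, by 0.37 ± 0.13, Actg2 by 0.37 ± 0.13, Tagln by 0.32 ± 0.07 and Acta2, smooth muscle actin, by 0.25 ± 0.06. Casq2, a calcium store protein that cardiac muscle shares, differed by -0.39 ± 0.43 and did not pass. For Tagln and Acta2 the change differed from the naive one at adjusted p of 0.0273 and 0.0296, and of 0.0509 and 0.0728 without both mice.

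Few matrix genes passed the threshold. Of 32 remodelling and profibrotic genes 4 fell and 1 rose (3 and 4 with the actin covariate), and of 33 collagen, elastin and laminin chains 1 fell and 4 rose. The membrane protease Mmp14 fell by 0.37 ± 0.12 and Lox, which crosslinks collagen, rose by 0.43 ± 0.12. Timp1, the protease inhibitor, differed by -0.61 ± 0.33, Mmp13 by -0.85 ± 0.45 and Adamts4 by -0.66 ± 0.44, none past the threshold. Col3a1 fell by 0.25 ± 0.07 and the basement membrane chain Col4a4 rose by 0.26 ± 0.07, while Eln and Col12a1 differed by -0.26 ± 0.12 and 0.27 ± 0.14. Postn, or periostin, and Tnc, both raised in asthmatic airways, differed by -0.079 ± 0.05 and -0.28 ± 0.26, neither past the threshold. Of 28 fibroblast markers 1 fell and 4 rose. Vstm2a, a secreted protein of fat precursors, rose by 1.10 ± 0.27 (adjusted p = 0.00103) and stood at -1.62 relative to naive at 96 h. Pdgfrb fell in both arms, by 0.32 ± 0.07 in sensitized and 0.29 ± 0.07 in naive lungs, and Scara5 and Pi16 differed by 0.34 ± 0.33 and -0.41 ± 0.17. Of 10 mesothelial markers 2 fell, Msln (-0.50 ± 0.13) and Upk1b (-0.30 ± 0.11), and 1 rose, Gpm6a (0.23 ± 0.09).

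Clock genes changed in the sensitized and in the naive arm. Of 21 clock and clock output genes 11 rose and 4 fell in sensitized lungs, and 11 rose and 3 fell in naive lungs, with medians of 0.32 and 0.41; 8 and 3 did so in sensitized lungs with the actin covariate. For none did the changes of the arms differ past the threshold, which does not show that they were equal. The labels give no hour of day for the sampling. Dbp, a clock output factor, had signals between 11.63 and 12.66 (median 11.98) in sensitized mice at 168 h, against signals between 9.31 and 10.14 (median 9.65) at 96 h. In naive mice its signals lay between 10.51 and 12.18 (median 11.64) at 168 h, against signals between 8.40 and 8.90 (median 8.54) at 96 h. In neither arm did the times overlap, and Dbp rose by 2.38 ± 0.21 and 2.83 ± 0.21 (adjusted p = 1.78e-16 and 1.98e-20), the highest rise in each.

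The repressors Nr1d1 and Nr1d2 rose by 1.53 ± 0.16 and 1.25 ± 0.12 in sensitized lungs and by 1.70 ± 0.16 and 1.14 ± 0.13 in naive lungs, and the period genes Per3 and Per2 by 1.41 ± 0.15 and 1.21 ± 0.21, against 1.31 ± 0.15 and 1.22 ± 0.22. Npas2 and Arntl, partners in the activating arm of the clock, fell by 1.74 ± 0.19 and 0.95 ± 0.15 in sensitized and by 1.53 ± 0.19 and 0.80 ± 0.15 in naive lungs. Probe sets of one gene did not always move alike: the other for Npas2 gave -0.50, the others for Per2 0.55 and 0.30 and the other for Zbtb16 0.71 in sensitized lungs. The window of Per1 is shown because its E-box is the site where the clock's activators are known to bind (RefSeq, GRCm38.p6, chr11:69098699-69098998, plus strand, CACGTG in capitals).
Per1: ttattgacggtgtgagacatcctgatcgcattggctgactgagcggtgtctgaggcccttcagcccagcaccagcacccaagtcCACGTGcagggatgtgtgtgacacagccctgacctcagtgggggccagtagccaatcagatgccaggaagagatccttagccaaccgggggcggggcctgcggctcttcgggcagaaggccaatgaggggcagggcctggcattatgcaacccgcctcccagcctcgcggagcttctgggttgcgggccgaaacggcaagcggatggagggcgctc
CACGTG stood in 4 of the 17 windows of clock genes (23.5%), against 9.77% of tested genes. Per1 itself rose by 0.81 ± 0.22 in sensitized and 0.80 ± 0.23 in naive lungs.

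Glucocorticoid-responsive genes rose in 7 of 18 cases in sensitized lungs and in 2 in naive lungs, and none fell; 5 rose with the actin covariate. Zbtb16, a zinc finger factor induced by glucocorticoids, had signals between 9.79 and 12.15 (median 10.71) in sensitized mice at 168 h, against signals between 8.34 and 11.12 (median 8.97) at 96 h. The ranges overlapped, with 2 of 8 mice at 168 h above all at 96 h. Zbtb16 rose by 1.64 ± 0.36 (adjusted p = 0.000229), against 0.33 ± 0.37 in naive lungs (adjusted p = 0.668), and the difference between these changes of 1.31 ± 0.52 did not pass (adjusted p = 0.0999). Map3k6 rose by 0.81 ± 0.14, Errfi1, an inhibitor of the epidermal growth factor receptor, by 0.24 ± 0.06, the factor Klf9 by 0.38 ± 0.07, and Fkbp5, a chaperone of the receptor, by 0.44 ± 0.18, which did not pass without both mice (adjusted p = 0.08).

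Of 13 cytosolic heat shock chaperones 4 rose in sensitized and 4 in naive lungs, with medians of 0.21 and 0.35, and 1 with the actin covariate in sensitized lungs. Hspb1, a small chaperone, rose by 0.68 ± 0.23 and Dnajb4 by 0.29 ± 0.09. Hspa1a, the inducible Hsp70, rose in naive lungs by 1.94 ± 0.58 (adjusted p = 0.0285) and differed by 0.61 ± 0.56 in sensitized lungs without passing. Of 26 immediate early genes 1 fell and 1 rose, and 7 stood below naive at 168 h. The matricellular protein gene Ccn1 fell by 0.38 ± 0.12, the factor Jun rose by 0.16 ± 0.05, and Gadd45g, Myc, Egr3 and Nr4a3 differed by -0.54 ± 0.22, -0.49 ± 0.21, -0.45 ± 0.21 and 0.52 ± 0.33, none past the threshold.

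Innate defence genes mostly did not pass. Of 31 acute phase, innate cytokine and antimicrobial genes 3 fell: Ptx3, a soluble pattern receptor (-0.62 ± 0.24), Pglyrp1, which binds bacterial walls (-0.46 ± 0.16), and Ptgs2, already named. Saa3, the serum amyloid made in lung, differed by -0.63 ± 0.42 and did not pass. With the actin covariate 0 fell and 3 rose, and without both mice 1 fell. Of 34 interferon-stimulated genes 2 fell and 5 rose, and 0 and 10 with the actin covariate. Without the covariate both shares lay below those of all genes (14.8% fell and 18.7% rose). The antiviral Mx1 fell by 0.59 ± 0.20 and the immunoproteasome subunit Psmb9 by 0.50 ± 0.10, while Ifit1 and Ifit2, which bind foreign RNA, rose by 0.40 ± 0.16 and 0.37 ± 0.11. Oas3 differed by 0.38 ± 0.26.

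Metabolic genes changed by small amounts. Of 35 genes of the respiratory chain and ATP synthase 11 fell and 3 rose, and 9 and 3 with the actin covariate. The cytochrome oxidase subunits Cox7c and Cox5a fell by 0.67 ± 0.15 and 0.30 ± 0.06, Sdhd by 0.23 ± 0.04 and Uqcrq by 0.26 ± 0.06. Of 10 glycolysis and lactate genes 4 fell, among them Hk3, a hexokinase of leukocytes (-0.53 ± 0.13), and the transporters Slc2a3 (-0.36 ± 0.14) and Slc16a3 (-0.36 ± 0.14). Pfkfb3, which makes the activator of phosphofructokinase, was the one that rose, with signals between 10.87 and 11.40 (median 11.05) at 168 h, against signals between 10.25 and 10.56 (median 10.43) at 96 h. The groups did not overlap, and it rose by 0.68 ± 0.08 in sensitized lungs (adjusted p = 4.07e-10) and by 0.34 ± 0.09 in naive lungs.

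Of 15 genes of cholesterol synthesis 4 fell and 2 rose, and of 21 of fatty acids 3 and 2. Srebf2, the factor that drives cholesterol synthesis, fell by 0.32 ± 0.05, Idi1 by 0.29 ± 0.11, Fads2, a desaturase, by 0.26 ± 0.05 and Acaca, which commits carbon to fatty acids, by 0.23 ± 0.07, while Hsd17b7 rose by 0.33 ± 0.09. Of 28 cytochrome P450 and conjugation enzymes 2 fell and 2 rose. Sult1c1, a sulfotransferase, fell by 1.12 ± 0.32 and Gsto1, a glutathione transferase, by 0.56 ± 0.11, and Cyp2e1 differed by 0.48 ± 0.41. Of 18 antioxidant genes 2 fell, Gpx2 (-0.53 ± 0.17) and Gsr (-0.18 ± 0.05). Of 15 ribosomal protein genes 6 fell and 1 rose, and of 26 proteasome subunit genes 4 and 1; with the actin covariate these were 1 and 2, and 0 and 10.

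**Figure D3:**
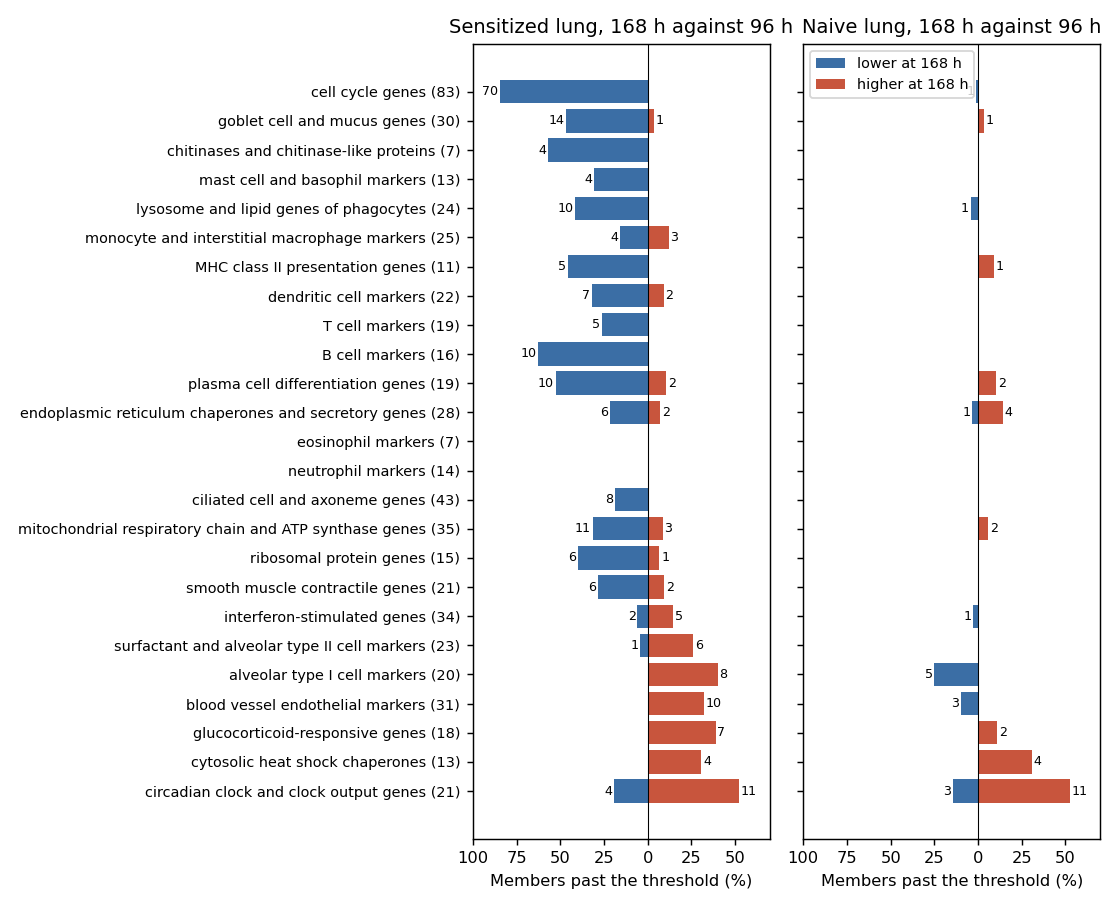
Share of each list's measured members (number in brackets) that was lower or higher at 168 h than at 96 h past the threshold, with counts at the bars, in sensitized lung at left and naive lung at right. The 70 of 83 cell cycle genes form the longest bar in sensitized lung, and the clock genes are the longest in naive lung.

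Lists of other tissues were checked for their movement with time. Of 17 cardiac muscle markers 2 fell, Mybpc3 (-0.97 ± 0.32) and Nppb (-0.61 ± 0.25), and Nppa differed by -1.21 ± 0.68 and did not pass. No skeletal muscle marker of 18 passed, with Acta1 at -0.57 ± 0.73. Of 13 adipocyte markers 1 fell, Cidea (-0.84 ± 0.27), and of 12 erythroid and platelet genes 1, Pf4. Of 8 thymus genes 2 fell, Prss16 (-0.40 ± 0.15) and Cd4. Of 19 squamous epithelium genes Ivl fell (-0.20 ± 0.08) and Scel rose (0.57 ± 0.10), by 0.77 ± 0.14 more than in naive lungs (adjusted p = 0.00156, and 0.00648 without both mice). Of 5 nerve genes Mbp rose by 0.10 ± 0.04, against -0.16 where all its probe sets were averaged.

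By 168 h, 628 genes still differed from naive lung, 184 below it (1.41%) and 444 above it (3.4%), against 2717 below (20.8%) and 2766 above (21.2%) at 96 h. Without both mice the numbers at 168 h were 239 and 498. The sensitized mice at each time serve both in these differences and in the change between the times, so the values are not independent of it. Of the 10 highest differences in signal at 168 h, 9 were Clca1 (7.77), Chil4 (5.58), Ighm (3.53), Gcnt3 (3.14), Slc26a4 (3.03), Cd209e (3.01), Scin (2.96), Ccl8 (2.44) and AA467197 (2.44) on the log2 scale, the other being an immunoglobulin kappa variable segment. Naive signals of Clca1, Chil4, Gcnt3, Cd209e and Scin lay under the array medians in every mouse at 168 h, and whether they were above background was not tested. AA467197 itself fell by 1.15 ± 0.44 from 96 h, and that did not pass without both mice (adjusted p = 0.0951). Of these, Clca1, Gcnt3, Slc26a4 and Scin belong to the goblet cell list, and Ighm is an immunoglobulin gene. None of 16 B cell and 19 T cell markers was among the 628, nor without both mice. With the actin covariate 2 T cell markers stood above naive. Since 1.41% of all genes lay below naive and 3.4% above it, 0 calls in lists this short is near those shares. No cell cycle gene and no type I cell marker was among the 628 either. Without both mice 2 cell cycle genes stood above naive and 4 type I markers below it. With the actin covariate 1 cell cycle gene stood above naive and 1 type I marker below it.

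**Figure D4:**
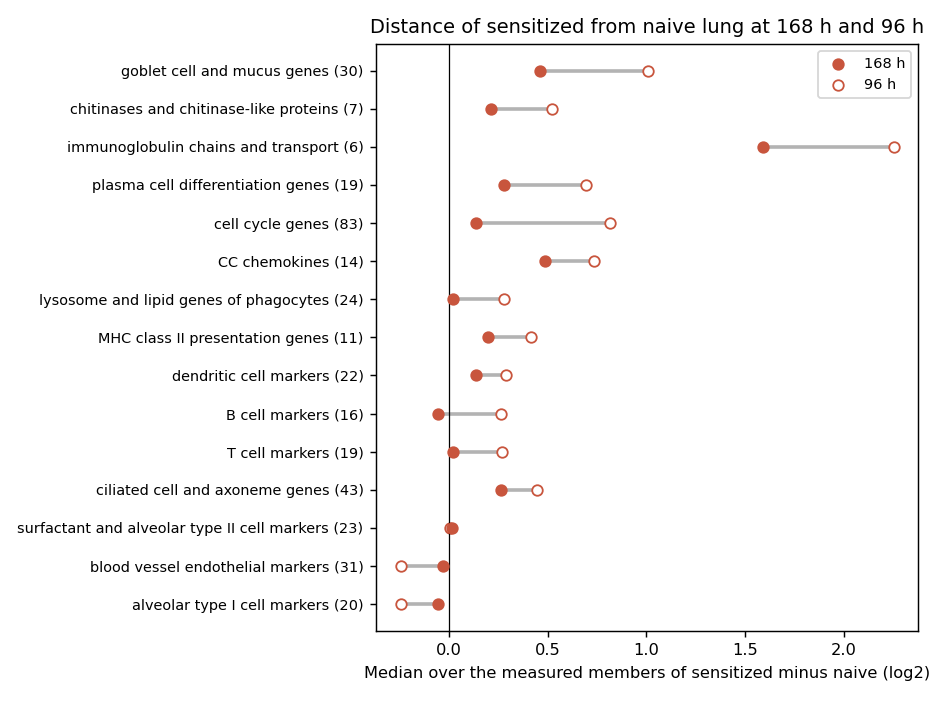
Median over each list's measured members of the log2 difference of sensitized from naive lung, at 168 h (filled) and at 96 h (open). The immunoglobulin list stays furthest from 0 at 168 h (1.59), the goblet cell list lies at 0.46, and the cell cycle list at 0.14, or at 0.25 without naive 168 h replicate 4.

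The 8 times of the series place this interval. Muc5ac in sensitized lungs averaged 10.73, 8.16, 9.72, 11.20, 11.51, 11.09, 10.49 and 8.62 at 0, 2, 6, 24, 48, 72, 96 and 168 h (mean log2 signal). Its value at 168 h was the lowest but that at 2 h. Cdca3 averaged 9.96, 9.62, 10.01, 9.30 and 8.32 at 24, 48, 72, 96 and 168 h, with its lowest value of the 5 at 168 h. Ccl8 averaged 13.32, 13.01, 13.17, 12.75 and 11.42 over the same times. Ighm averaged 14.12, 14.22, 14.49, 14.49 and 14.31. Fabp1 averaged 6.97, 8.29, 8.51, 8.39 and 9.96, against 10.85 in naive lungs at 168 h. Differences between these other times were not tested here.

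**Figure D5:**
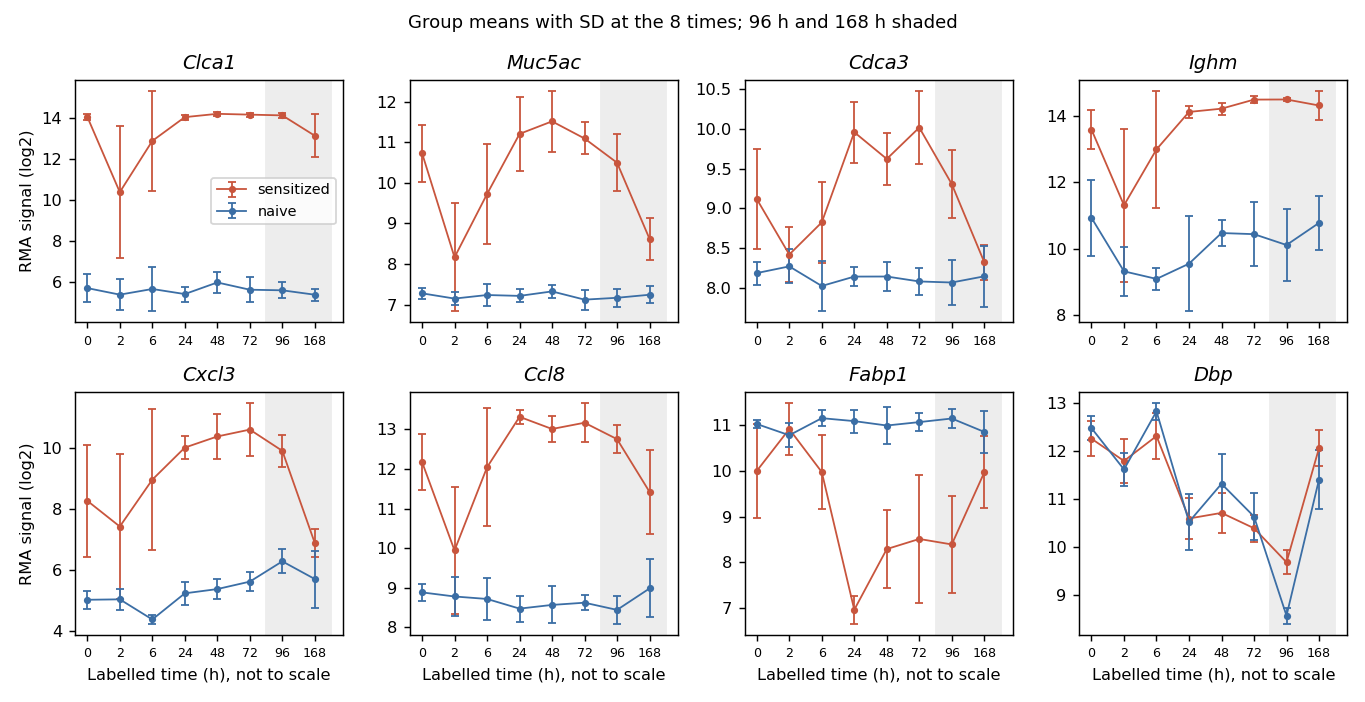
Mean log2 signal with SD of 8 genes in sensitized and naive lung at the 8 labelled times in hours, drawn at equal steps and not to scale, with 96 h and 168 h shaded. Muc5ac, Cdca3, Cxcl3 and Ccl8 in sensitized lung are lower at 168 h than at 96 h, Clca1 and Ighm stay high, Fabp1 at 168 h is nearer to naive lung than at 96 h, and Dbp is high at 168 h in both arms.

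Genes outside the lists also stood among the largest changes. Lemd1, a LEM domain protein, fell by 1.48 ± 0.32 (adjusted p = 0.000161), and its change differed from the naive one by -1.74 ± 0.46. Sphk2, which makes sphingosine 1-phosphate, rose by 1.93 ± 0.18 in sensitized and 2.06 ± 0.19 in naive lungs, while another probe set of the gene showed -0.02 in sensitized lungs. Tex11, a meiosis gene, rose by 1.63 ± 0.20 and 1.37 ± 0.21, and Stc2, a secreted glycoprotein, by 0.86 ± 0.15 and 0.54 ± 0.16. Fam107a, a stress-responsive actin regulator, rose by 1.06 ± 0.21, Peg10, an imprinted gene of retroviral origin, by 0.93 ± 0.21, and Mpp3, a membrane scaffold, by 0.92 ± 0.18 in sensitized lungs. For these 3 the difference from the naive change did not pass (adjusted p of 0.171, 0.114 and 0.228).

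Genes whose change exceeded the naive one most, after Fabp1, were C1qtnf3, a secreted relative of adiponectin (1.12 ± 0.35), 9530026P05Rik (1.09 ± 0.27), the transcription factor Dach1 (0.83 ± 0.20), Edil3, an integrin ligand (0.82 ± 0.20), and the carboxylesterase Ces2b (0.81 ± 0.26). Dach1, Edil3 and Ces2b did not pass in the sensitized arm (0.27 ± 0.14, 0.30 ± 0.14 and 0.22 ± 0.18) and fell in naive lungs (-0.56 ± 0.15, -0.52 ± 0.14 and -0.59 ± 0.19). Without both mice the adjusted p of these differences was 0.0617 for C1qtnf3, 0.0415 for 9530026P05Rik, 0.0245 for Dach1, 0.0395 for Edil3 and 0.141 for Ces2b. Among genes that fell in naive lungs, Spon2, an extracellular matrix protein, fell by 0.71 ± 0.14, and by 0.85 ± 0.13 in sensitized lungs, and Ikzf4, a lymphoid zinc finger factor, by 0.66 ± 0.12 and 0.41 ± 0.12.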

How the data were processed

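Whole lung RNA of mice in 16 groups was hybridised to Affymetrix arrays. The deposited values are log2 signals made by the authors with RMA, per the submitters' processing notes; no version is stated there. RNA had an RNA integrity number above 6 and was amplified from the 3′ end (100 ng per sample), per the labels' protocols, so signals rest on 3′ probes. Of 25697 probe sets, 22478 had 1 gene symbol in the platform annotation, 259 several and 2950 none, and 10 are controls. For each of 13053 genes the probe set of highest mean signal was kept, of which 5672 had more than 1. Array intensities were not rescaled. Arrays give no read depth, and their number limits the precision.

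Groups were taken from the labels and each array is 1 mouse. limma 3.58.1 in R 4.3.3 fitted 1 mean per group over all arrays of the 16 groups (107 residual degrees of freedom), with empirical Bayes moderation and Benjamini-Hochberg adjustment within each comparison at 0.05. On simulated data of 13053 genes for sensitized 168 h minus 96 h, 89% of 100 genes changed by 0.5 log2 and 100% of 100 genes changed by 1 log2 were recovered. The simulated noise was normal and independent between genes, with no mouse standing apart and no shift in RNA quality. Smaller changes were not simulated, so these shares do not give the recovery in the real arrays. In all 43 settings were tried, among them the actin covariate, array weights, other normalizations and leaving out each mouse. The exact permutation test went over every split of the arrays, in Python 3.11.15 with numpy 2.4.6. Named genes were the 15 lowest and 15 highest changes in sensitized lungs, the 6 lowest and 6 highest differences between the arms, the 4 lowest and 4 highest changes in naive lungs, the 10 highest differences from naive at 168 h (of which 1, an immunoglobulin kappa variable segment, is not named), up to 4 members of each of 59 lists by size of change, a panel of 24 genes and other list members named beside their list's count. The members, lists and rules were chosen with earlier results of these data known. Promoter windows came from RefSeq tables. Not analysed here were Mki67, Top2a, Ear11, Retnla and Arg1.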

Additional observations from a re-analysis of the deposited data

Results flagged for a closer look

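Single mice lay far from the rest of their group for 57 of 550 pairs of a named gene and a group (10.4%). Sensitized groups were tested for every named gene, but naive groups only for a few genes whose naive signals are given. Naive mice therefore had far fewer chances to be counted, and their few entries do not show that they stood apart less. A mouse was counted where its gap to the nearest other mouse, over the range of the group, exceeded Dixon's 95% critical value, which chance alone passes in about 1 of 20 groups. Genes of one list are not independent, so several of them can mark the same mouse. Sensitized 168 h replicate 6 stood apart in 9530026P05Rik at 9.39, AA467197 at 7.50, Ackr2 at 12.50, Chia1 at 12.41, Chil3 at 13.02, Chil4 at 7.07, Clca1 at 10.66, Gcnt3 at 5.48 and Ighm at 13.27 (log2 signal). For sensitized 168 h replicate 6 the genes were Jchain at 11.72 and Scin at 6.48 (log2 signal). The log2 signals that set sensitized 168 h replicate 5 apart were Bpifa1 at 9.60, Ccna2 at 10.20, Ccnb2 at 8.95, Cdc20 at 8.55, Cdk1 at 9.96, Gpx2 at 10.06, Ltf at 9.78, Myc at 8.14 and Reg3g at 8.85. Sensitized 168 h replicate 5 stood apart in Tff2 at 9.21 (log2 signal). For sensitized 168 h replicate 1 the genes were Ctsw at 8.56, Dnajb4 at 12.36, Errfi1 at 13.75, Fkbp5 at 10.62, Herpud1 at 12.73, Ltb at 8.98, Postn at 12.93 and Slc2a3 at 10.53 (log2 signal). The log2 signals that set sensitized 96 h replicate 5 apart were Fam107a at 9.94, H2-Ob at 9.89, Map3k6 at 9.20, Mmp12 at 11.84, Per2 at 10.39 and Zbtb16 at 11.12. Sensitized 168 h replicate 4 stood apart in Acta2 at 12.81, Actg2 at 10.42, Myh11 at 10.75, Tagln at 12.34 and Timp1 at 9.19 (log2 signal). For sensitized 168 h replicate 3 the genes were Cxcl13 at 11.37, Sult1c1 at 6.77 and Xbp1 at 12.81 (log2 signal). The log2 signals that set sensitized 96 h replicate 2 apart were Egr3 at 8.77, Spcs3 at 12.19 and Tnfrsf9 at 10.11. Sensitized 96 h replicate 4 stood apart in Bpifa1 at 9.15, Bpifb1 at 11.09 and Reg3g at 8.98 (log2 signal). For sensitized 96 h replicate 8 the genes were Apoc2 at 8.49, Cox5a at 13.38 and Pla2g5 at 7.79 (log2 signal). The log2 signals that set naive 168 h replicate 4 apart were Cxcl3 at 7.89 and Fabp1 at 9.76. Naive 96 h replicate 7 stood apart in Cdca3 at 7.51 (log2 signal). For sensitized 96 h replicate 6 the genes were Tex11 at 4.85 (log2 signal). The log2 signals that set sensitized 96 h replicate 7 apart were Ptgs2 at 10.003.

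The change between 96 and 168 h differed between the sensitized and the naive arm for 72 of the 269 named genes (limma's interaction term, Benjamini-Hochberg adjusted p under 0.05 over all genes). Over all 13053 genes it differed for 892. Some named genes were chosen because they passed in this comparison, and many for the size of their sensitized change. Their share is therefore raised by the choice and is no rate for other genes. The values that follow are the sensitized change minus the naive change on the log2 scale. Among cell cycle genes they were Aurkb -1.08, Bub1b -0.78, Ccna2 -0.85, Ccnb2 -0.89, Cdc20 -0.89, Cdca3 -1.06, Cdk1 -0.95, Cep55 -1.14 and E2f1 -0.45. In cell cycle genes the differences came to Kif2c -1.17, Mcm3 -0.52, Mcm5 -0.71, Mcm6 -0.62, Rrm1 -0.41 and Tk1 -0.72. For goblet cell and mucus genes the term was Capn9 -1.79, Fcgbp -1.35, Fxyd4 -2.07, Gcnt3 -1.36, Muc5ac -1.95, Scin -1.75 and Spdef -0.74. Among phagocyte and lysosome genes they were Acp5 -1.07, Apoc2 -0.87, Ctsz -0.38, Psap -0.37 and Trem2 -1.02. In alveolar type I cell markers the differences came to Clic5 0.23, Pdpn 0.14, Sema3a 0.37 and Sema3e 0.40. For chemokines the term was Ccl11 -1.80, Ccl8 -1.87, Cxcl1 -1.61 and Cxcl3 -2.45. Among plasma cell genes they were Derl3 -0.997, Eaf2 -1.40, Edem1 -1.11 and Mzb1 -1.54. In secretory pathway genes the differences came to Pdia4 -0.60, Sdf2l1 -0.76, Sec11c -0.27 and Spcs3 -0.36. For ciliated cell genes the term was Ccno -0.65, Foxj1 -0.68 and Rsph1 -0.63. Among other genes they were 9530026P05Rik 1.09, Acta2 -0.29, C1qa -0.88, C1qtnf3 1.12, Ces2b 0.81, Chil1 -0.27, Col4a3 0.34, Col4a4 0.32 and Dach1 0.83. In other genes the differences came to Edil3 0.82, Fabp1 1.86, Gsto1 -0.60, Lcn2 -0.68, Lemd1 -1.74, Pigr -0.96, Retnlb -1.71, Robo4 0.28 and Scel 0.77. For other genes the term was Sftpb 0.25, Srebf2 -0.25, Tagln -0.34, Tbxas1 -0.63, Tpsab1 -0.61, Tslp 0.59, Uqcrq -0.37 and Zbtb46 0.42. The naive mouse that stood apart enters all of these differences. Without it the change differed between the arms for 22 cell cycle genes rather than 44 of 83, and for 2 type I cell markers rather than 10 of 20; values for each gene without it are not given here.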

How the results depend on the processing

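The count of genes that changed between 96 and 168 h in sensitized lungs (4380) stayed within 1.5 times under every alternative except 2: it was 2675 among genes above the median signal, where fewer genes were tested, and 1243 with only the 2 arrays at 168 h inside the actin range of 96 h, where fewer arrays were used. Leaving out 1 mouse at a time gave 3810 to 4544. The naive count (756) was 320 with only the 4 groups, 2183 with array weights, 412 without both mice that stood apart and 321 to 1351 without single mice; it moved by over 1.5 times without naive 168 h replicates 1 (1351), 2 (1263), 4 (405), 5 (321) and 7 (483) and naive 96 h replicates 1 (457), 2 (421) and 3 (497). The count of genes whose change differed between the arms (892) was 1573 with array weights, 0 in the actin range (limma, where few arrays were left) and 478 without both mice. It ran over 442 to 1400 without single mice, and moved most without sensitized 168 h replicate 4 (557), sensitized 96 h replicates 2 (442), 3 (1400) and 6 (553), naive 168 h replicates 2 (573) and 4 (489) and naive 96 h replicates 3 (502), 5 (510) and 6 (461). The difference between arms at 96 h (5483 genes) was 3158 above the median signal and 4808 to 5758 without single mice, and at 168 h (628 genes) 263 above the median signal, 1570 with array weights, 67 in the actin range and 364 to 776 without single mice, with 409 without sensitized 168 h replicate 1 and 364 without naive 168 h replicate 1. The cause of the moves with array weights, with the 4 groups alone and without single mice was not tested.

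Of the 269 named genes, many of them chosen for the size of their change, 201 passed in sensitized lungs, against 4380 of all 13053 genes. Among the named genes the number was 100 above the median signal, where only 129 of them were tested. It was 106 with the actin covariate, 59 in the actin range and 170 to 196 without single mice. With the actin covariate 171 of the 269 kept their direction and their side of the threshold, 88 lost the call, 3 gained one and 7 turned: Abca3 to -0.057, Ctse to 0.010, Folr2 to 0.13, Irf4 to 0.030, Sdf2l1 to 0.15, Slamf7 to 0.026 and Stat6 to -0.028. Mbp turned to -0.16 with the mean of all probe sets. The actin difference itself ran over 0.41 to 0.48 without single mice. Lists with few calls, of heat shock, glycolysis, cholesterol, remodelling, lymphatic, follicle and chemokine genes, lost up to 3 of 4 or 5 calls without one mouse. No paired analysis was possible because the replicate numbers were given in accession order and tie no mouse at 168 h to one at 96 h. Signal over background and saturation were not tested.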
